A study of Mus musculus with 4 samples.

Results

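The Usp genes encode ubiquitin-specific proteases, and 39 of them carried a peak of histone H3 lysine 36 trimethylation (H3K36me3) in forebrain progenitors of the mouse embryo. They were chosen by name: a gene entered when the authors' annotation of either genotype gave at least 1 peak a gene name made of Usp and a number, with 1 gene of such a name left out by the rule and not analysed here. Of the 39 Usp genes, 38 were named with a peak outside intergenic sequence in cKO and 32 in WT. Over all 12573 genes so named in either genotype, 33.1% were named in cKO alone and 2.8% in WT alone. Usp6nl met the naming rule too, although it encodes a GTPase-activating protein and not a protease.

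The mark was profiled by ChIP-seq, the sequencing of DNA immunoprecipitated with an antibody, in forebrain neural progenitors at embryonic day 13. The H2A.z1cKO embryos (cKO) carried a brain-specific deletion of H2A.z1, a histone variant that replaces H2A in some nucleosomes, and the WT embryos did not. Both groups were on the C57BL/6 background, and both were precipitated with the same H3K36me3 antibody (Active Motif). The Cre line and the number of embryos behind a library are not given in the sources used here. Each genotype had 1 ChIP library and 1 input library, so every difference between cKO and WT is one between single libraries, with no replicate check and no p-value.

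Ubiquitin-specific proteases are the largest family of deubiquitinases: they remove ubiquitin from proteins and so spare them from the proteasome or change what they bind. Some act on histones H2A and H2B or on DNA repair proteins, others on receptors, mitochondria or the proteasome itself. H3K36me3 is written behind elongating RNA polymerase II and lies over the bodies of transcribed genes, towards their ends.

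The ChIP libraries held 32927164 tags in cKO and 31984670 in WT, and the inputs held 35026817 tags in cKO and 38500353 in WT. The authors' narrow peak calling gave 95750 peaks over 69.1 Mb in cKO and 36820 peaks over 13.3 Mb in WT, so the whole cKO list was 2.60 times as long by number and 5.18 times by covered length. All 7 neural progenitor markers looked at, among them Sox2, Pax6 and Nes, had a peak in the gene body in both genotypes. Of the other cell types, all 3 endothelial and all 3 mesenchymal markers had none, and 1 of 3 microglial markers (Csf1r) and 1 of 3 erythroid markers (Alas2) had a peak in cKO alone. Of 4 neuronal markers, Tubb3 and Map2 had peaks in both genotypes, and Dcx and Neurod6 had none.

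RefSeq promoter windows, from 250 bases before to 50 bases after a gene's start, were at hand for 29 of the 39 genes (30 windows, assembly GRCm38.p6). No window overlapped a peak in cKO (0 of 30, exact 95% interval 0 to 11.6%) or in WT (0 of 30, same interval), against 1.26% of all 32850 promoter windows in cKO and 0.338% in WT. Most Usp windows were rich in CpG, with a median of 31.5 CpG against 7 over all windows. The motif GGGCGG, known as the GC box, stood in 70.0% of Usp windows and 35.7% of all windows. CGGAA, the core of ETS factor sites, stood in 43.3% and 29.9%, CCAAT in 23.3% and 37.4%, and TATAAA in 6.67% and 13.6%. All windows take in those of genes without a peak, while the Usp genes were chosen for having one, and windows of marked genes alone were not compared. Both strands were searched for each motif, and matches may overlap one another. A match describes the letters and is not a measured binding site.

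Below are 4 of these windows, chosen after their values were seen. Usp19 had the highest coverage in WT, Usp36 the highest in cKO, Usp46 had no WT peak, and Usp50 had the fewest CpG (2). Each is written 5′ to 3′ on the strand of its gene, and capitals mark the same 4 motifs on either strand. The windows are chr9:108490426-108490725 (plus strand) for Usp19, chr11:118290195-118290494 (minus strand) for Usp36, chr5:74068362-74068661 (minus strand) for Usp46 and chr2:126783411-126783710 (minus strand) for Usp50.
Usp19: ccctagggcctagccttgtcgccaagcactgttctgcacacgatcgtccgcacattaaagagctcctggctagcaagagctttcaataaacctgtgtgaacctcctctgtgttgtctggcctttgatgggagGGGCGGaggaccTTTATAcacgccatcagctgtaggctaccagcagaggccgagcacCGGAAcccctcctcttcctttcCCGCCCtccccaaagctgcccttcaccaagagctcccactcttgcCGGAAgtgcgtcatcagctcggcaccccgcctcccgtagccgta
Usp36: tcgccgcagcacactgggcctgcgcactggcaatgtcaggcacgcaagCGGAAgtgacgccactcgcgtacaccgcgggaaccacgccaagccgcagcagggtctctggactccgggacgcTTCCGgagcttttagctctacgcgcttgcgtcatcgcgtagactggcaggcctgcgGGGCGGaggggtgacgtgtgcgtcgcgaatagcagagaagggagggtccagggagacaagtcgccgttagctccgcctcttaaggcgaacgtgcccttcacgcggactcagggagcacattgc
Usp46: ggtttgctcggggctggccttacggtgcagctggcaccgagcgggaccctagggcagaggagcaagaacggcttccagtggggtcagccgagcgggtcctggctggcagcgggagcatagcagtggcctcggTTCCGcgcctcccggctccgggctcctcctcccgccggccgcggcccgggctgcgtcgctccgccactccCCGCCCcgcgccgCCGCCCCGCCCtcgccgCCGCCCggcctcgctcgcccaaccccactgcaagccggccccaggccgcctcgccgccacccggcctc
Usp50: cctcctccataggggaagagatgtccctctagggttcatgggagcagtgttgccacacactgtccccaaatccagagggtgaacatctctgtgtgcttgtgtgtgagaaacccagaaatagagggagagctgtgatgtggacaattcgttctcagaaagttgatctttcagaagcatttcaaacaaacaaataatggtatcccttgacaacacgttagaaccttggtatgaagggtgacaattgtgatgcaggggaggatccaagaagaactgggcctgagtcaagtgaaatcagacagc
The Usp19 window holds 15 CpG and a TATAAA, which among the 29 genes with a window only Usp40 shares. The Usp36 and Usp46 windows hold 33 and 38 CpG and have both the ETS core and the GC box. The Usp50 window has none of the 4 motifs. From the start used for the Usp19 window, the first peak downstream began at 2170 bp in cKO and 2224 bp in WT. For Usp36 it began at 2317 bp in cKO and 4418 bp in WT. For Usp46 it began at 35733 bp in cKO, with none in the gene in WT.

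Over the whole family, H3K36me3 peaks were more numerous and covered more of the genes in cKO. The 39 genes had 647 named non-intergenic peaks summing to 463.0 kb in cKO, against 220 peaks summing to 82.9 kb in WT. That is 2.94 times the number and 5.58 times the summed length, beside 2.58 and 5.18 times for all named non-intergenic peaks. For the 31 Usp genes named in both lists, the median ratio of summed length, cKO over WT, was 7.60 (quartiles 4.02 and 11.2), and for the 8054 genes of any kind named in both it was 5.48 (3.22 and 9.53). The 2 interquartile ranges overlap.

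Gene-body coverage was taken as the share of bases between the RefSeq start and end of a gene that lay inside peaks. Its median over the 39 genes was 23.7% in cKO and 3.05% in WT. The median difference, cKO minus WT, was 19.2 percentage points (quartiles 7.92 and 34.5). Coverage was higher in cKO for 38 genes and lower for 1, Usp44. A difference of 10 points or more in a gene of 5 kb or longer counted as a call, and 28 of 39 Usp genes (71.8%) were called higher in cKO while 0 were called lower. The same rule called 32.6% of all 16852 protein-coding genes of that size higher and 0% lower. Among the 8873 of them with a body peak in either genotype, which every Usp gene here also had, 61.9% were called higher. The 8830 such genes outside the Usp family had a median coverage of 19.3% in cKO and 1.81% in WT and a median difference of 16.3 points. The median Usp difference thus lay inside the interquartile range of those other marked genes, 4.73 to 32.2 points. Single members lay above that range and below it.

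**Figure D1:**
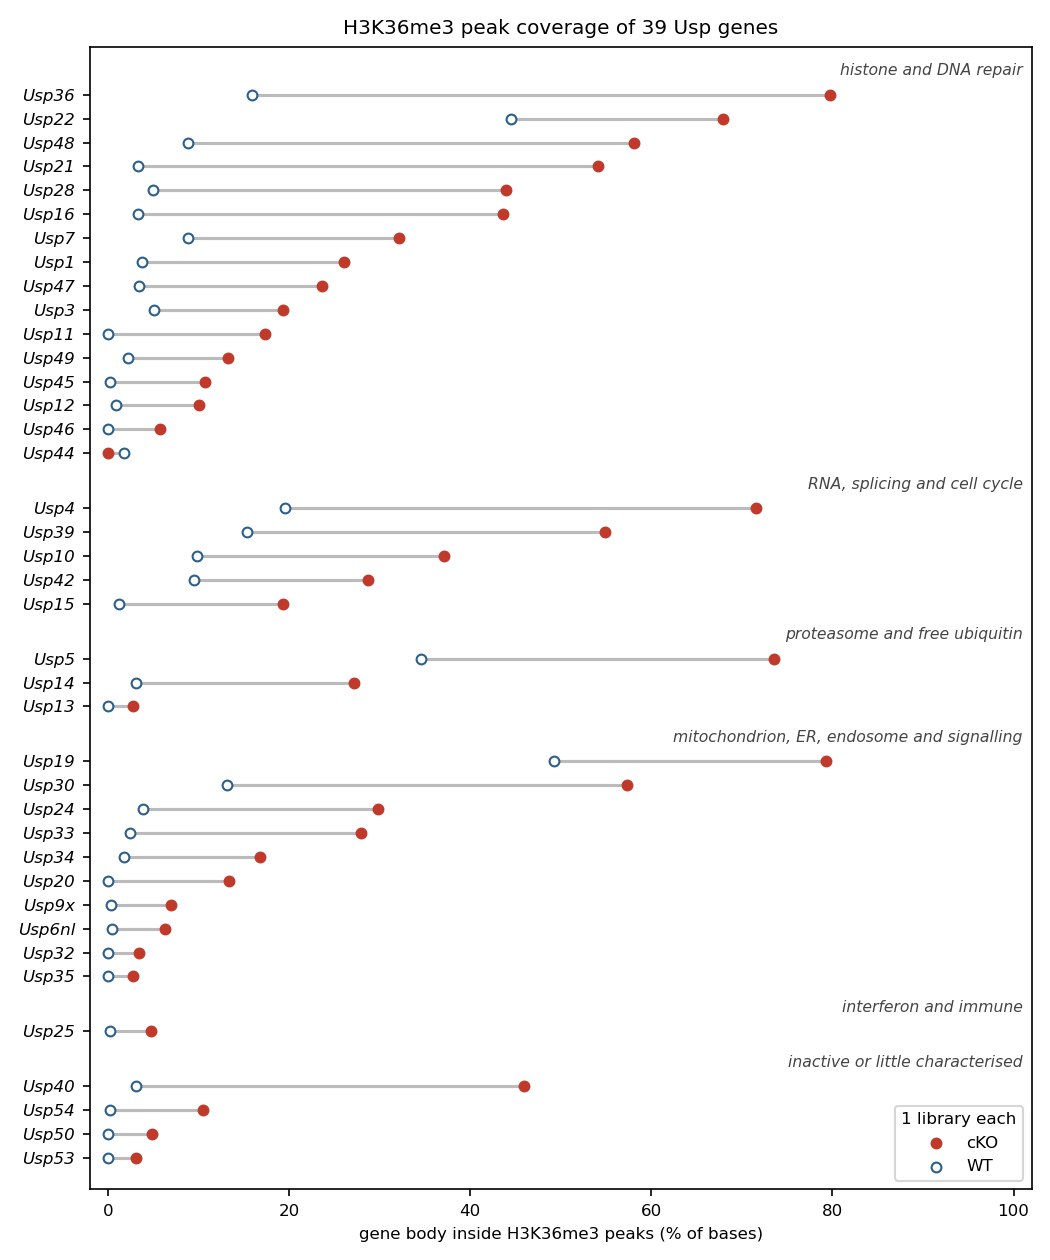
Share of each gene body inside H3K36me3 peaks (x axis, % of bases) for the 39 Usp genes, grouped by role; filled points are the cKO library and open points the WT library. The cKO point lies to the right of the WT point for 38 genes, from 2.79% against 0% in Usp35 to 79.7% against 15.9% in Usp36, and to the left for Usp44.

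The call depended on how far down each list was read. When only as many of the strongest cKO peaks were kept as WT had peaks, 20 Usp genes were called higher and 0 lower. Their median difference was 10.7 points. This setting called 3730 of all 16852 genes higher (22.1%), and only 8873 of the 16852 had a body peak in the full lists. The 8 Usp calls lost were those of Usp3 (7.13 points), Usp11 (8.75), Usp15 (6.60), Usp20 (0), Usp34 (7.57), Usp45 (4.11), Usp49 (6.21) and Usp54 (4.56). When the strongest cKO peaks were kept only until they covered as many bases as the WT peaks did, 4 Usp genes were called higher. These were Usp5, Usp19, Usp22 and Usp42, while Usp30 was called lower, and the median difference was 0. At that length 810 of all 16852 genes (4.81%) were called higher and 373 (2.21%) lower, again with unmarked genes in the total. When peaks of a list within 3 kb of each other were joined instead, 30 Usp genes were called higher. Joining called 6032 of all 16852 genes higher (35.8%). The Usp genes called were not all the same ones as before. Usp19 (9.88 points), Usp22 (6.94) and Usp42 (9.15) were then no longer called, and Usp36 had a difference of 23.6 points. Usp6nl (16.6 points), Usp9x (24.5), Usp12 (12.9), Usp25 (11.1) and Usp46 (13.5) were called only with peaks joined. A fold enrichment of at least 4 ended the calls of Usp20 (9.61 points), Usp45 (8.01) and Usp54 (7.97), and a −log10 q of at least 5 those of Usp45 (9.73) and Usp54 (9.88).

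Ranked within a library, the Usp genes stood at much the same place in both. Among the 8873 marked genes, their median percentile by coverage was 56.1 in cKO and 58.9 in WT, and 5 Usp genes in cKO and 4 in WT lay in the top 10%. Usp19 stood at percentile 99.0 in cKO and 99.6 in WT, Usp5 at 97.3 and 97.8, and Usp4 at 96.4 and 92.2. Usp22 stood at 94.7 in cKO and 99.3 in WT, and Usp36 at 99.1 and 89.3. The largest moves upward were those of Usp11 (47.2 in cKO, 13.9 in WT, where it had no peak), Usp20 (41.1 and 13.9) and Usp21 (85.7 and 60.7). The largest moves downward after Usp44 were those of Usp42 (62.3 in cKO, 81.1 in WT) and Usp3 (50.1 and 68.6). Across the 39 genes, coverage in cKO and in WT had a Spearman correlation of 0.891, a description of 2 libraries that share gene length and mappability.

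**Figure D2:**
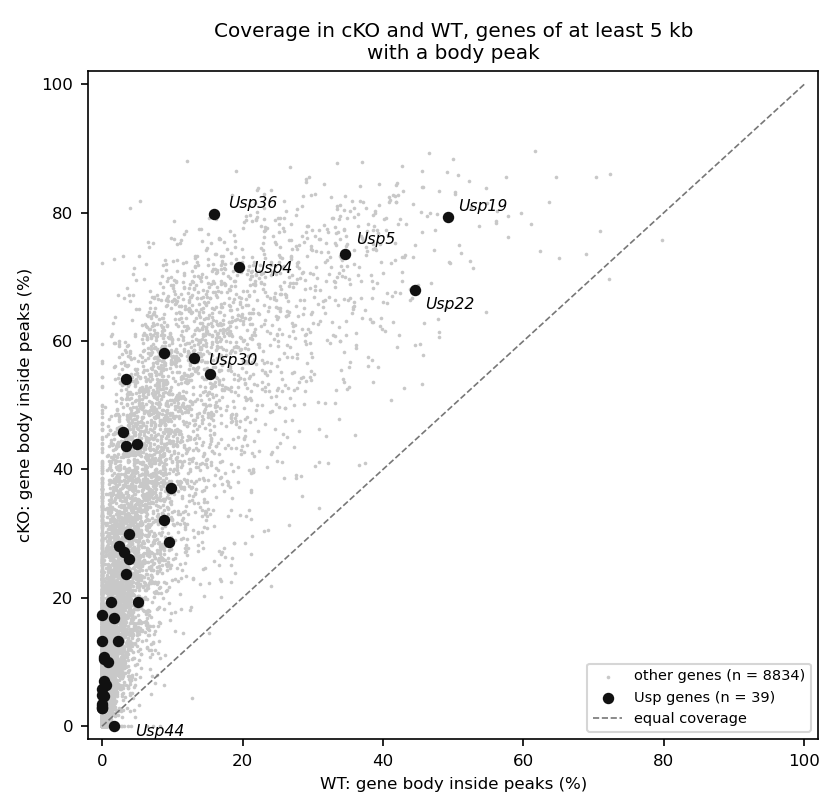
Coverage in cKO (y axis, %) against coverage in WT (x axis, %) for genes of at least 5 kb with a body peak in either genotype; black points are the 39 Usp genes, grey points the other 8834 genes (4 further Usp genes among them), and the dashed line marks equal values. The Usp genes spread through the grey cloud, and Usp44 alone among them lies under the line.

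The histone and DNA repair group held 16 of the 39 genes, and 13 of them were called higher in cKO, beside 61.9% of all marked genes. Its median coverage was 24.9% in cKO and 3.40% in WT, and its peaks summed to 177.3 kb in cKO and 37.5 kb in WT. Usp36, a nucleolar deubiquitinase, had 79.7% of its body covered in cKO and 15.9% in WT, the largest difference of all members (63.8 points). It had 14 body peaks in each genotype, and they were wider in cKO. The longest was 7218 bp in cKO, with 5776 bp of it inside the body, and 827 bp in WT.

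Usp21, a histone H2A deubiquitinase, had 54.1% covered in cKO and 3.36% in WT, where it held a single peak of 202 bp. Usp48, a nuclear deubiquitinase, had 58.1% in cKO and 8.85% in WT, with 38 and 19 peaks. Usp16, which deubiquitinates H2A before mitosis, had 43.7% in cKO and 3.37% in WT. Each of these 3 genes was under 10% covered in WT and over 40 points higher in cKO.

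Usp22 is the H2B deubiquitinase of the SAGA complex. It had 68.0% covered in cKO and 44.5% in WT. It had fewer peaks in cKO (5) than in WT (14), yet the cKO peaks summed to 16129 bp against 10557 bp in WT. A single cKO peak of 14007 bp (chr11:61153311-61167317, mm10) overlapped 12 WT peaks, and it was the longest Usp peak in either list. The 2 longest WT Usp peaks, of 1791 and 1761 bp, also lay in Usp22, and the next, of 1336 bp, lay in Usp42. By summed length in WT Usp22 was followed by Usp7 (21982 bp in cKO, 6046 bp in WT), Usp48 (37440 and 5704 bp), Usp36 (27447 and 5058 bp) and Usp24 (39027 and 5027 bp).

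The other members of this group differed in size of change more than in direction. Usp28, which stabilises MYC, had 43.9% covered in cKO and 5.02% in WT. Usp7, which deubiquitinates MDM2 and p53, had 32.2% in cKO and 8.85% in WT. Usp1, which acts on FANCD2 with its partner WDR48, had 26.0% in cKO and 3.79% in WT. All 3 were called higher, as were Usp47 (23.7% in cKO, 3.43% in WT), Usp3 (19.4% and 5.09%), Usp49 (13.3% and 2.22%) and Usp45 (10.7% and 0.223%).

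Usp12 and Usp46 are close relatives that are both activated by WDR48 and WDR20. Usp12 had 10.1% covered in cKO and 0.866% in WT, and Usp46 had 5.81% in cKO and no peak in WT. Both fell short of the 10 points of a call, at 9.20 and 5.81 points, and passed it with peaks within 3 kb joined.

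Usp44, which acts in the spindle checkpoint and on H2B, was the only member with less coverage in cKO. It had no peak in cKO and 3 body peaks in WT covering 1.74% of the gene. The 2 that carried its name were 215 bp (chr10:93846083-93846297, mm10) and 208 bp (chr10:93846707-93846914, mm10) long. They stood at percentiles 19.0 and 0.843 of the WT list by −log10 q, so they were among its weaker peaks. Its body overlaps that of Metap2, and ChIP signal carries no strand. Being named in WT alone was seen in 2.8% of all named genes, and a lower summed length in cKO in 3.98%.

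All 5 genes of the RNA, splicing and cell cycle group were called higher, beside 61.9% of all marked genes, with a median of 37.1% in cKO and 9.89% in WT. Usp4, which acts with SART3 at the spliceosome, had 71.5% covered in cKO and 19.6% in WT, a difference of 52.0 points. Usp39, a spliceosome protein without protease activity, had 54.9% in cKO and 15.4% in WT. Usp10, a binding partner of G3BP1, had 37.1% in cKO and 9.89% in WT.

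This group was the most covered of those with more than 3 members in both genotypes. Usp42, which deubiquitinates p53, had 28.7% in cKO and 9.55% in WT, and Usp15, a relative of Usp4, had 19.3% and 1.23%. The strongest Usp peak of the cKO list by −log10 q lay in the last part of Usp42 (chr5:143711653-143718533, mm10), was 6881 bp long and overlapped 6 WT peaks.

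The proteasome and free ubiquitin group held 3 genes with values far apart. Usp5, which takes apart unanchored ubiquitin chains, had 73.6% covered in cKO and 34.6% in WT. It had 3 peaks in cKO and 9 in WT, and a single cKO peak of 9889 bp overlapped all 9 WT peaks. Usp13, the closest relative of Usp5, had 2.79% in cKO and no peak in WT. Usp14, which sits on the proteasome, had 27.1% in cKO and 3.07% in WT.

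In the mitochondrion, ER, endosome and signalling group 6 of 10 genes were called higher (61.9% of all marked genes), with a median of 15.1% in cKO and 1.13% in WT. Usp30, which opposes mitophagy at the outer mitochondrial membrane, had 57.3% covered in cKO and 13.1% in WT. It is also the gene called lower, by 13.1 points, when the cKO peaks are kept only up to the WT covered length, since none of its cKO peaks then remain. Usp19, which is anchored in the ER membrane, had 79.3% in cKO and 49.2% in WT, the highest WT value of the family. Its 9 WT body peaks were overlapped by 1 cKO peak of 9302 bp.

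Usp24 and Usp34 are long genes with many separate peaks. Usp24 had 66 peaks in cKO and 15 in WT, and coverage of 29.9% and 3.85%. Usp34, which acts on axin in Wnt signalling, had 68 peaks in cKO and 6 in WT, and coverage of 16.8% and 1.76%. Their longest cKO peaks were 2154 bp in Usp24 and 2035 bp in Usp34, and the number of peaks differed more between the genotypes than their width.

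The rest of the group was less covered. Usp33 (28.0% in cKO, 2.39% in WT) and Usp20 (13.3% and 0%), which are close relatives, were called higher. Usp9x, Usp6nl, Usp32 and Usp35 were not, with 6.97%, 6.35%, 3.43% and 2.79% in cKO and at most 0.505% in WT.

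The 2 X-linked members both had more peaks in cKO. Usp9x, whose product acts on endosomal and cell polarity proteins, had 23 peaks in cKO and 2 in WT. Usp11, which acts in homologous recombination, had 5 in cKO and none in WT, and its coverage of 17.3% in cKO was called higher, though not at the WT number of peaks. The whole X chromosome had 8.30 times as many peaks in cKO as in WT, beside 2.60 times for the whole list. Usp26, Usp27x and Usp51, also X-linked, had no body peak in either genotype.

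Of the remaining members, Usp40, a little-studied enzyme, had 45.9% covered in cKO and 3.05% in WT, with 51 and 12 peaks. Usp54 had 10.5% in cKO and 0.287% in WT and was also called. Usp53 (3.10% in cKO, 0% in WT), Usp50 (4.90% and 0%) and Usp25 (4.77% and 0.238%), a gene linked to interferon responses, were not.

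Peaks in cKO alone, by name, were found for 7 members (Usp11, Usp13, Usp32, Usp35, Usp46, Usp53 and Usp54), against 33.1% of all named genes. Usp20 had a WT peak under its name, but that peak lay in the body of its neighbour Fnbp1. With peaks assigned by overlap with the body instead of by name, 38 members had a peak in cKO and 31 in WT.

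Fewer peaks in cKO than in WT were counted for 4 members, Usp5, Usp19, Usp22 and Usp44, and for 12.8% of all named genes. In the first 3 the summed length was nonetheless larger in cKO, a pattern found in 9.5% of all named genes. Usp19 had 2 peaks summing to 13933 bp in cKO and 8 summing to 4456 bp in WT. Usp5 had 10387 bp in cKO and 5006 bp in WT. These 3 genes also had the highest WT coverage of the family.

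**Figure D3:**
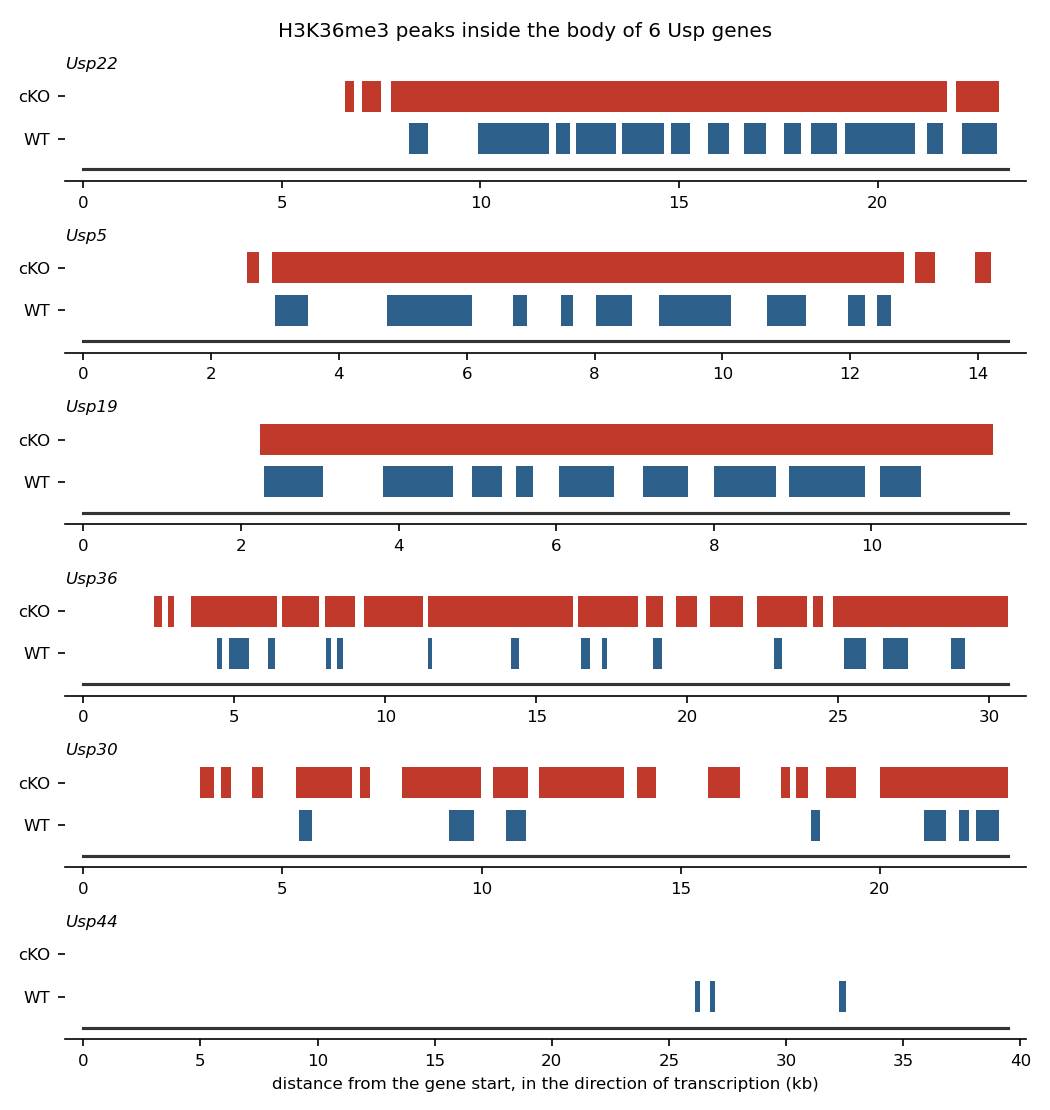
H3K36me3 peaks inside the bodies of 6 Usp genes, drawn to scale as distance from the gene start in the direction of transcription (x axis, kb), with cKO peaks above WT peaks and the gene as a line. In Usp22, Usp5 and Usp19 a single cKO peak spans 12, 9 and 9 WT peaks, Usp36 has 14 body peaks in each genotype, Usp30 has 14 in cKO and 7 in WT, and Usp44 has peaks in WT alone.

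More than 50% of the body was covered in 9 Usp genes in cKO (Usp36, Usp19, Usp5, Usp4, Usp22, Usp48, Usp30, Usp39 and Usp21) and in 0 in WT, beside 9.23% of all genes of at least 5 kb in cKO. Those 9 are 23.1% of the members, and of the marked genes outside the family 17.5% were covered to that degree in cKO. Shorter genes were covered more fully: the Spearman correlation of coverage with body length over the 39 genes was −0.435 in cKO and −0.348 in WT, as a description. The median Usp body was 53.4 kb, against 28.5 kb for the other marked genes.

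**Figure D4:**
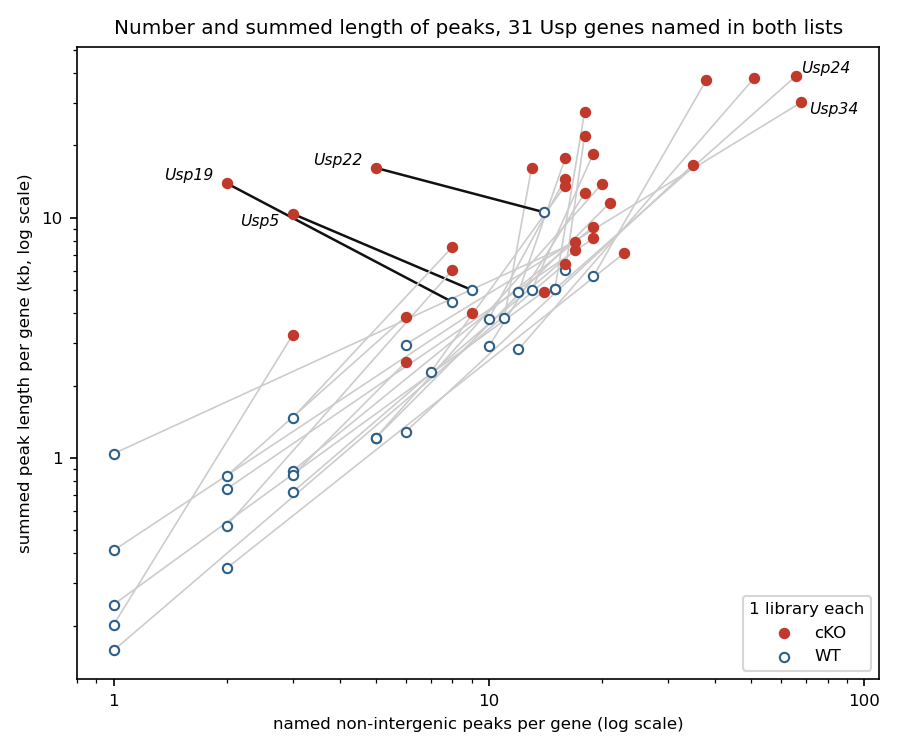
Number of named non-intergenic peaks (x axis) and their summed length in kb (y axis) on log scales for the 31 Usp genes named in both lists; filled points are cKO, open points WT, and a line joins the values of 1 gene. Every line climbs, and the 3 black lines, of Usp22, Usp5 and Usp19, lean to the left because these genes had fewer peaks in cKO.

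Peaks of the family were wider in cKO, where the shortest was 185 bp, against 152 bp in WT, the fragment lengths modelled for the 2 libraries. Their median width was 436 bp in cKO and 290 bp in WT, beside 439 and 271 bp over all non-intergenic peaks. Peaks over 2 kb made up 31 of 647 in cKO (4.79%, exact 95% interval 3.28 to 6.73%) and 0 of 220 in WT (0 to 1.66%). Over all non-intergenic peaks these shares were 6.09% in cKO and 0.478% in WT. Within its own list the median Usp peak stood at percentile 52.7 by −log10 q in cKO and 54.3 in WT, so Usp peaks were of middling strength in both.

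Nearly every WT peak of the family had a cKO counterpart. Of the 220 WT peaks 214 (97.3%, 94.2 to 99.0%) overlapped a cKO peak by at least 1 bp, while 142 of 647 cKO peaks (21.9%, 18.8 to 25.3%) overlapped a WT peak. In the whole lists these shares were 96.5% of WT and 25.6% of cKO peaks. By bases, 96.8% of the 92.5 kb covered in WT in the Usp bodies were also covered in cKO, as were 95.7% in other marked genes. Usp44 kept none of its WT bases in cKO, Usp1 kept 51.7% and Usp49 75.6%, and 14 of 31 members kept all of them. Of the cKO peaks, 36 of 647 overlapped 2 or more WT peaks, beside 6006 of 92920 over the whole list.

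By the authors' classes, 70.0% of Usp peaks in cKO lay in introns (66.3 to 73.5%) and 52.7% in WT (45.9 to 59.5%). Exon peaks made up 12.2% in cKO and 18.2% in WT, beside 16.1% and 23.3% in the whole lists. Peaks at transcript ends made up 11.1% in cKO and 19.5% in WT, beside 14.3% and 17.9%. The whole lists shared the higher intron share in cKO, with 64.0% in cKO and 50.9% in WT. Peaks of the promoter class made up 6.65% in cKO and 9.55% in WT, yet none of these 43 and 21 peaks lay within 1 kb of the start of its RefSeq gene. The nearest lay 1203 bp away in cKO and 1410 bp away in WT, both in Usp21.

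Along the gene, coverage was lowest at the start and highest at the end in both genotypes. With each body cut into 5 equal segments, mean coverage of the 39 genes in cKO was 5.49% in segment 1, 24.4% in segment 2, 33.4% in segment 3, 36.8% in segment 4 and 45.4% in segment 5. In WT it was 0.785%, 6.64%, 7.69%, 8.54% and 11.6% in the same order. Segment 1 held a peak in 17 genes in cKO and 8 in WT, and segment 5 in 37 in cKO and 26 in WT. Of 7181 other marked genes, 2464 held a peak in segment 1 in cKO and 951 in WT. In segment 5 these counts were 6299 in cKO and 3849 in WT. Mean coverage of those genes also rose from segment 1 to segment 5, from 5.83% to 39.7% in cKO and from 0.916% to 9.48% in WT. As a share of the summed coverage the 2 profiles of the Usp genes lay close together. Segment 1 held 3.78% in cKO and 2.22% in WT, and segment 5 held 31.2% and 33.0%.

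**Figure D5:**
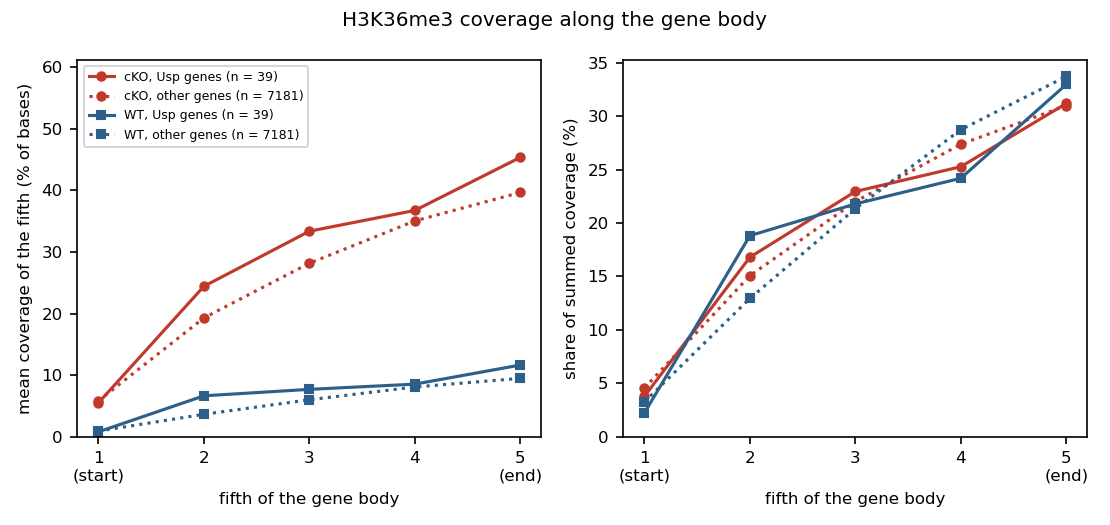
Coverage of 5 equal segments of the gene body, from start to end (x axis), as mean coverage in % of bases (left panel) and as share of the summed coverage in % (right panel); red is cKO and blue WT, solid lines are the 39 Usp genes and dotted lines 7181 other marked genes whose strand is given in RefSeq. Coverage climbs towards the end in each line, and the cKO and WT shares of the Usp genes differ by at most 2.02 points in any segment.

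The first body peak lay nearer the start in cKO for 28 of the 30 Usp genes with body peaks in both genotypes. Its median distance was 8141 bp in cKO and 15182 bp in WT, or 19.5% and 29.7% of the body. The part of the larger number of cKO peaks in this was not tested. The same count over other marked genes is not given here, so it cannot be read as particular to the Usp genes. The 2 exceptions were Usp3, whose first peak began at 47475 bp in cKO and 21638 bp in WT, and Usp28, at 15056 bp in cKO and 7423 bp in WT.

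The gene named for a peak in the authors' annotation was not always the gene whose body held it. In cKO 68 of 647 named peaks lay outside the gene they were named for, and in WT 19 of 220. Conversely, 142 of 721 body peaks in cKO and 39 of 240 in WT carried another gene's name. Most peaks named Usp50 lay in Usp8 next to it: 18 of 21 in cKO and 5 of 5 in WT. Of the 35 cKO peaks named Usp14, 8 lay in Rock1 and 7 in Thoc1. Peaks named Usp40 lay in Dgkd in 8 cases in cKO and 4 in WT. Bodies of 11 members overlap another coding gene, so their coverage may include signal of the neighbour.

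Another 16 numbered Usp genes of RefSeq had no peak under their own name. Usp8, which deubiquitinates receptors at endosomes, nonetheless had 26.5% of its body covered in cKO and 3.28% in WT. Usp37 had 31.1% in cKO and 2.22% in WT, Usp38 28.7% and 2.88%, and Usp31 17.0% and 1.22%. The other 12, among them Usp2, Usp18, Usp43 and the Usp17l genes, had no body peak in either genotype.

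Genes without a numbered Usp name were listed from the UCH, OTU, Josephin and JAMM deubiquitinase families, whether or not they had a peak. Cyld and Uspl1 were added to this list, and none of the listed genes was called lower. Of the 30 listed genes 26 had a body peak in cKO and 17 in WT. In either genotype 25 of the 27 long enough for a call had one, beside 8873 of all 16852 protein-coding genes of that size. Of these 27 genes 13 were called higher (48.1%, beside 32.6% of all genes). Over the 25 of these 27 with a body peak, median coverage was 17.2% in cKO and 0.928% in WT and 52.0% were called, beside 61.9% of all marked genes. Over the 43 Usp genes of RefSeq with a body peak, members or not, it was 26.0% in cKO and 2.88% in WT and 74.4% were called. Otub1, which blocks ubiquitin transfer at DNA breaks, had 74.9% in cKO and 28.0% in WT, and Otud3 had 37.5% and 4.34%. Of the UCH family, Bap1, an H2A deubiquitinase, had 79.2% in cKO and 32.9% in WT, and Uchl1, an abundant neuronal enzyme, had 54.4% and 15.6%. In cKO the OTU and UCH families thus held genes about as fully covered as the leading Usp genes. In WT Otub1 and Bap1, the most covered of these 2 families, lay below Usp19 (49.2%), Usp22 (44.5%) and Usp5 (34.6%). Cops5, the JAMM protease of the COP9 signalosome, had 49.8% in cKO and 5.80% in WT, and Mysm1, of the same family, had 24.1% and 0.832%. Of the Josephin family, Atxn3 had 21.0% in cKO and 0.537% in WT and Josd1 22.7% and 3.05%. Uspl1, a SUMO protease, had 59.1% in cKO and 16.9% in WT, and Cyld, which trims chains in NF-kB signalling, had 1.38% and 0%.

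Of 15 partners of Usp enzymes, all had a body peak in cKO and 12 in WT. Of all 16852 protein-coding genes of at least 5 kb, 8873 had one in either genotype. Among the 15 partners 11 were called higher, beside 61.9% of all marked genes. Median coverage of the partners was 38.4% in cKO and 3.47% in WT. Mdm2, a substrate of Usp7, had 72.4% in cKO and 27.9% in WT. Wdr48, the activator of Usp1, Usp12 and Usp46, had 50.1% in cKO and 8.27% in WT, and Sart3, which recruits Usp4 and Usp15, had 73.9% and 32.2%. Both lists were written with earlier results of these data known.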

How the data were processed

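Cells were fixed in 1% formaldehyde before immunoprecipitation, per the labels' protocols. The submitters' processing notes name Bowtie2 2.2.9, FastQC, bedtools and MACS2 2.1.0, and the build mm10. Narrow peaks were called for each ChIP library against an input by MACS 2.1.1.20160309 with a p cutoff of 1.00e-05, per the file headers. The deposited lists give positions, pileup signal, the fold enrichment ratio over local input, and −log10 p-values and q-values, all made by the authors' peak caller; these served only to rank or filter peaks within a list. The deposited annotation names a gene and class for each peak, without stating its tool.

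Peaks were counted by name, leaving out intergenic ones. Gene bodies of at least 5 kb and promoter sequences came from RefSeq GRCm38.p6, and all 39 members matched. Coverage used merged peaks, and a difference of 10 points was a call. Strand came from the promoter table for 29 members and from exon and intron order in the annotation for 10; the sources were equal for 24 of 24 members with both. Intervals are exact Clopper-Pearson at 95% and cover counting error only. The scripts used Python 3.11.15, numpy 2.4.6, pandas 2.3.3 and scipy 1.17.1 and were checked on simulated data. Narrow calling splits a broad domain into pieces that join as signal grows, so number and length of peaks move with enrichment as well as with depth, and coverage cannot exceed the whole body.

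Every member is accounted for. Others are named by size of difference within their list (2 to 4 per group), by lower values in cKO, by most peaks or longest peaks, or by X linkage. The members and gene lists were chosen with earlier results of these data known. Alternatives were stricter peak thresholds, a cKO list shortened to match the WT list in number or in covered length, joined peaks, assignment by body overlap, intergenic peaks counted, and Usp6nl left out.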

Additional observations from a re-analysis of the deposited data

How the results depend on the processing

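No paired analysis was possible because each genotype had 1 ChIP library, and for the same reason no replicate could be left out. Totals over the family stayed within 1.5 times their values with −log10 q of at least 5 (613 peaks in cKO and 166 in WT, 26 calls), fold enrichment of at least 4 (557 in cKO and 201 in WT, 25 calls), body overlap (721 in cKO and 240 in WT), intergenic peaks counted, Usp6nl left out and peaks within 3 kb joined (30 calls), though single calls changed as the report gives. Of all 16852 genes, marked or not, 32.3% were called higher under the q rule, 30.2% under the fold rule and 35.8% with peaks joined. With the strongest cKO peaks kept up to the number in WT, the Usp genes had 257 peaks summing to 307.9 kb in cKO and a median difference of 10.7 points. With them kept up to the covered length of WT, 16 Usp genes had 36 peaks summing to 95.5 kb in cKO. At that length 4 Usp genes were called higher, beside 4.81% of all genes, and the median difference was 0. There the difference turned negative for 17 genes. Among those called before, it was −3.79 points for Usp1, −5.09 for Usp3, −3.07 for Usp14, −1.23 for Usp15, −3.37 for Usp16, −3.36 for Usp21, −13.1 for Usp30, −0.742 for Usp33, −1.20 for Usp36, −3.05 for Usp40, −0.223 for Usp45, −2.22 for Usp49 and −0.287 for Usp54. The others were Usp6nl (−0.505), Usp9x (−0.339), Usp12 (−0.866) and Usp25 (−0.238). Among the 17 only Usp33 and Usp36 had a cKO peak left in the body, by construction of the shorter list. At equal covered length the cKO list held 5308 peaks and the WT list 36820. With single libraries, a difference between genotypes and one between 2 immunoprecipitations cannot be told apart. The ChIP libraries held 32927164 tags in cKO and 31984670 in WT, with modelled fragments of 185 bp in cKO and 152 bp in WT. The part of depth, input or fragment length in the differences was not tested.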
